A study of Homo sapiens with 34 samples.

Results

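The ecSE6 perturbation of PC3 DM cells was compared with the empty vector by CUT&Tag, in which a transposase tethered by an antibody cuts and tags the chromatin that carries a mark. Libraries were chosen by their titles, 3 for ecSE6 and 2 for the vector, of 16 PC3 DM libraries and 34 libraries in the series. PC3 DM is an established line from a prostatic adenocarcinoma that carries the oncogene MYC on extrachromosomal DNA (ecDNA), circles that lie outside the chromosomes. All groups were transfected with 700 ng of plasmid, collected on day 3 and assayed from 50000 nuclei with a rabbit antibody named anti-H3K9me in the labels. How many methyl groups it recognises is not stated there. The vector group received the plasmid labelled vector and the ecSE6 group an sgRNA plasmid labelled ecSE6-perturbation. The other PC3 DM groups were ecSE1 and ecSE2 with 3 libraries each, ecSE7 with 2, and a combination, ecSEcombo, with 3. The labels give neither the genome position of ecSE6, nor the effector used with the guide, nor what the combination covers. Whether replicates were separate cultures is not stated, and the p-values below therefore describe spread among libraries that may be only technical.

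Methylation of lysine 9 on histone H3 marks silenced chromatin. It is written by enzymes such as SETDB1, SUV39H1 and EHMT2, is bound by HP1 proteins that recruit further writers, and can therefore spread along DNA from the place where it is set. CRISPR interference uses the same route: a KRAB domain brought to DNA by a guide recruits TRIM28 and SETDB1. The neighbourhood of MYC on 8q24 holds PVT1, a long noncoding RNA gene that lies beside MYC, is often amplified with it, and hosts several microRNAs, of which MIR1204 is the one nearest its start. Super-enhancers carried on ecDNA can act on MYC, and the CASC noncoding RNA genes lie in the same stretch of 8q24.

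The deposited lists held 21360, 19736 and 42953 peaks for ecSE6 replicates 1, 2 and 3, and 18547 and 55454 for the 2 vector replicates. The lists of the 2 groups overlapped in length, and log10 of the number of peaks differed by -0.0868 (two-sided exact permutation test, p = 0.800). Because longer lists hold more weak peaks, each list was also cut to its 10288 best peaks by q-value, the length of the shortest PC3 DM list. A pair of libraries stands apart: vector replicate 1 and ecSE6 replicate 1 have no peak at chr15:67840032-67840306 beside RNU6-1, a U6 small nuclear RNA gene, where 14 of the 16 PC3 DM libraries have their best peak. The main differences between the groups are given with and without these 2 libraries. As a check of the mark, 55.3% ± 2.13 (SD, n = 3) of 241 zinc finger genes on chromosome 19, textbook H3K9 methylation targets, held a peak in the ecSE6 lists of equal length. Of all protein-coding genes 10.7% ± 0.113 (SD, n = 3) did, and the vector lists had 53.9% ± 8.80 and 10.6% ± 0.673 (SD, n = 2).

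The strongest peak that ecSE6 had and the vector lacked lay 1477 to 1503 bases past the lower end of PVT1, the end that faces MYC. Its summit was at 127796001, 127796001 and 127796027 on chromosome 8 (hg38) in replicates 1, 2 and 3, within or beside MIR1204 (chr8:127795962-127796028). It ranked 3, 4 and 3 in its lists by q-value, with -log10 q of 187.0, 163.7 and 125.5. The summit held 1099, 863 and 534 fragments over a local background of 384, 281 and 148 fragments in the same library. Neither vector list had any peak within 50 kb on either side, at any rank. All 3 ecSE6 libraries were thus high at this site and both vector libraries had nothing above the peak caller's threshold.

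The main peak was the centre of a cluster. Between 127785001 and 127830000, ecSE6 replicates had 7, 9 and 8 peaks that together covered 6497, 4723 and 3772 bases (4997 ± 1383, SD, n = 3), and the vector 0 and 0 bases. On the PVT1 side, peaks began at 127797260, 127797270 and 127797270 and ranked 8, 12 and 7. A further group began at 127799883, 127799601 and 127799611 and ranked 293, 66 and 38. Small peaks followed at about 12 and 15 to 16 kb past the lower end of the gene. On the side of MYC, each ecSE6 library had 1 peak in the 5 kb from 127785001, ranked 96, 227 and 741, and none of the other 13 PC3 DM libraries had a peak there. Between that peak and the main one lay a gap of over 5 kb without peaks in all 3 libraries.

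The size of this signal showed in fragments and not in fold. The authors' fold at the main summit was 2.85, 3.06 and 3.58, because the fold divides by a background taken around the peak. The peaks that 2 other libraries had nearest this summit had higher or similar folds from few fragments: 4.38 with 30 fragments in ecSE2 replicate 2 and 2.89 with 39 fragments in ecSE7 replicate 2. They ranked 8444 and 4652 by q-value. With lists ranked by fold instead, none of the ecSE6 peaks at the PVT1 start was among the 10288 best of any replicate, and the mean difference in covered length there was 0.

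**Figure D1:**
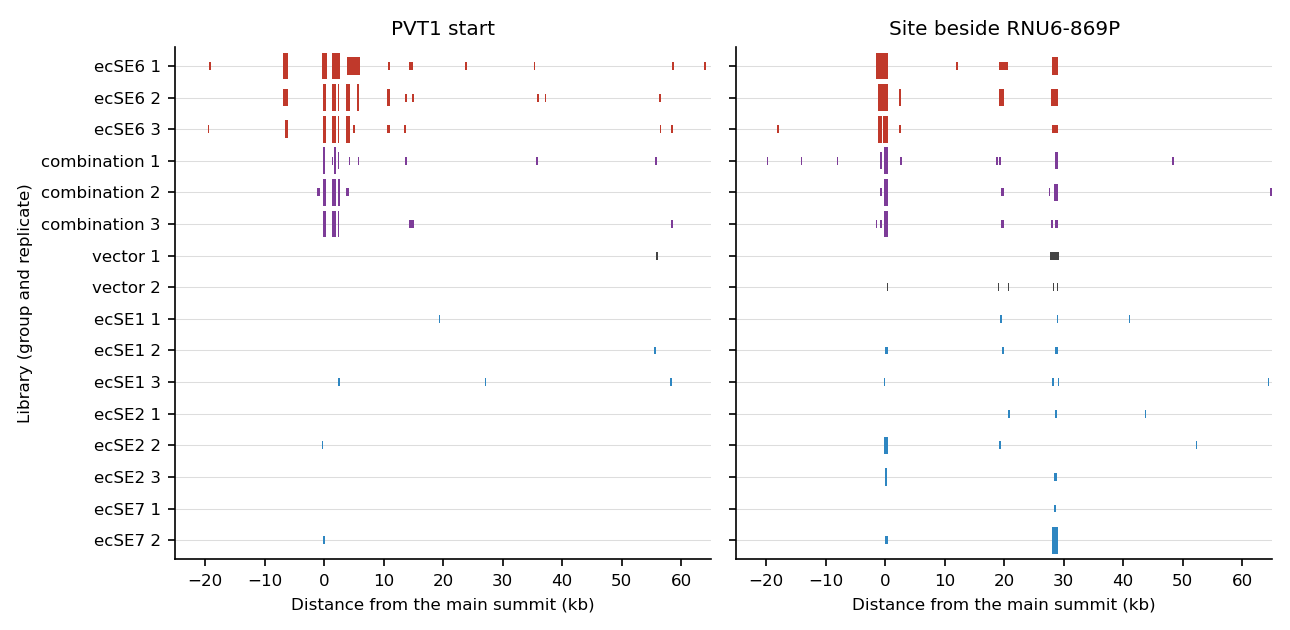
Peaks of the lists as deposited around the main ecSE6 summit at the PVT1 start (left) and beside RNU6-869P (right) in 16 PC3 DM libraries, by distance from the summit in kb, with higher coordinates to the right. Boxes span the peaks, and are tallest for ranks up to 100, intermediate up to 1000 and lowest beyond; the 3 ecSE6 rows hold 7, 9 and 8 peaks in the cluster at the PVT1 start, where the vector rows are empty.

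The local background that the peak caller estimated around each peak traced how far the signal reached. It includes the marked neighbourhood of the peak, and is given as a multiple of the lowest background in the same library. The undivided background rises with depth and with copy number, and the division does not correct for the copy number of the region. In ecSE6 replicates 1, 2 and 3 it was 1071, 740 and 714 at the main summit. At the peaks on the MYC side, -6.6, -6.5 and -6.1 kb from the summit, it was 344, 248 and 266. At peaks on the PVT1 side, 10.8, 10.8 and 10.6 kb from the summit, it was 245, 181 and 179. By 23.8 kb, where ecSE6 replicate 1 alone had a peak, it was 16.1. From 50 to 250 kb on the PVT1 side the ecSE6 peaks had a median of 1.96 and at most 16.6, and the vector peaks a median of 1.20 and at most 8.37. The 3 nearest peaks of ecSE1, ecSE2 and ecSE7 libraries, within 10 kb, had 19.7, 52.6 and 27.0. In all 3 ecSE6 libraries the values thus stayed at 97.2 or more from the peak on the MYC side to the last peak within 20 kb of the summit on the PVT1 side. From 20 to 50 kb on that side only ecSE6 replicates 1 and 2 had peaks, with 16.1 to 17.0. On the MYC side, replicates 1 and 3 had a peak each between 10 and 25 kb from the summit, with 12.0 and 8.92, and from 25 to 250 kb the ecSE6 peaks had a median of 1.06 and at most 14.5. Values of that size were not limited to ecSE6: between 25 and 250 kb on the MYC side ecSE7 replicate 1 had peaks with 30.5 and 42.2. No test was made on these values, since a background is known only where a list has a peak.

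**Figure D2:**
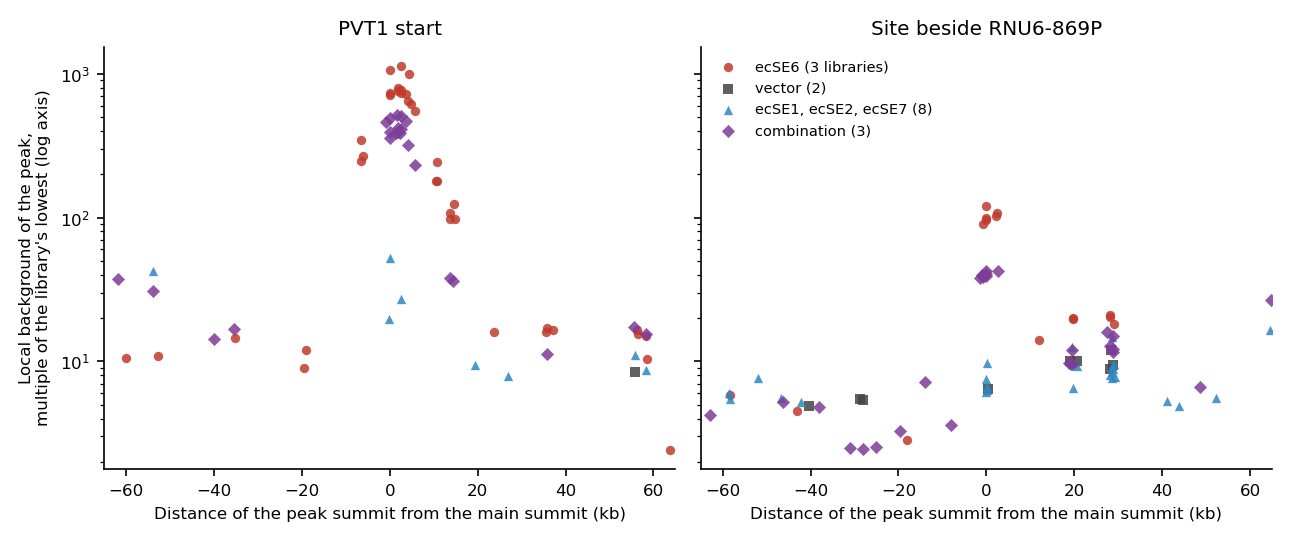
Local background of each peak as a multiple of the lowest background in its library (log axis) against the distance of its summit from the main ecSE6 summit in kb, at the PVT1 start (left) and beside RNU6-869P (right). Points are peaks of the lists as deposited; ecSE6 peaks reach 1130 near the PVT1 start and 120 beside RNU6-869P, and those of replicates 1 and 2 lie at 16.1 to 17.0 from 20 to 50 kb on the PVT1 side.

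Deeper in PVT1 the ecSE6 lists held more peak length, but the groups overlapped in the lists as deposited. Beyond 127810001, which leaves out the start of the gene, ecSE6 replicates had 1590, 1372 and 269 bases of PVT1 under peaks in lists of equal length, and the vector replicates 0 and 0. As deposited these were 2364, 2353 and 910 against 327 and 1055 bases (two-sided exact permutation test, p = 0.4). At equal length the difference of 1077 bases had p = 0.2 (two-sided exact permutation test), the smallest that 3 against 2 libraries allow. Against the 10 libraries of vector, ecSE1, ecSE2 and ecSE7, whose mean was 169 ± 255 bases (SD, n = 10), the difference was 908 bases (two-sided exact permutation test, p = 0.0280, adjusted p = 0.112 over 8 tests), and 2 of 3 ecSE6 libraries lay above all 10. The unadjusted p was 0.121 without ecSE6 replicate 1, 0.121 without ecSE6 replicate 2 and 0.145 without both libraries that lack the chromosome 15 peak. Ranked by fold, the difference was 61.9 bases (p = 0.776, exact permutation test). Part of this length belongs to the cluster described above, which was counted up to 127830000. Without the peaks of both chromosome 8 sites, chosen after seeing the data, the difference was 738 bases against the vector (exact permutation test, p = 0.2). Against the 10 libraries it was then 589 bases (exact permutation test, unadjusted p = 0.0280). The run of peaks no more than 10 kb apart spanned 30795, 21958 and 20351 bases in the 3 ecSE6 libraries. With gaps of up to 25 kb allowed it spanned 145982, 63370 and 33290 bases, and in ecSE6 replicate 1 it ran from MYC into PVT1.

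A further site of this kind lay on the far side of MYC, beside RNU6-869P, a U6 pseudogene (chr8:126504763-126504868). Its summit was at 126506198 in ecSE6 replicates 1 and 2 and at 126506204 in replicate 3, between that pseudogene and LOC105375750, a long noncoding RNA gene (chr8:126506437-126522360). Peaks covered 2036, 2160 and 1877 bases in the ecSE6 libraries (2024 ± 142, SD, n = 3) and 0 and 187 bases in the vector. The best peaks ranked 15, 10 and 8, and held 189, 213 and 144 summit fragments over backgrounds of 43.0, 37.8 and 19.9. The single vector peak, in replicate 2, ranked 10151 with 13 fragments over 1.20. Weak peaks were present here in 5 of 8 ecSE1, ecSE2 and ecSE7 libraries, with ranks from 524 to 17216 and 13 to 28 fragments, and at the PVT1 start in 4 of the 8, with ranks from 4160 to 53344 and 9 to 39 fragments. In lists of equal length the ecSE6 mean minus the vector mean was 4619 bases at the PVT1 start and 1818 at the RNU6-869P site, and without both libraries that lack the chromosome 15 peak 3854 and 1663 bases. The signal here was narrower: no ecSE6 summit lay between 2.5 and 10 kb away on either side. The background multiple was 95.6 to 120 at the summits. Between 10 and 20 kb on the MYC side it was 14.1 to 20.1 in 2 ecSE6 libraries. The 1 vector peak there had 10.0, and peaks of 3 ecSE1, ecSE2 and ecSE7 libraries had 6.51 to 12.5. On the other side, 1 ecSE6 peak between 10 and 25 kb had 2.84.

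Among the 100 best peaks of each list, 368 bins of 5 kb held a peak in at least 1 of the 5 libraries. A bin is called gained when all 3 ecSE6 lists and neither vector list have a peak in it, and lost in the reverse case. Gained bins numbered 4, or 1.09% of those occupied, and lost bins 2, or 0.543%, and all 6 lay on chromosome 8. That chromosome held 58 of the 368 occupied bins. The gained bins were the 2 that hold the RNU6-869P site, the one with the PVT1 summit, and chr8:133755001-133760000, where both vector lists had peaks at ranks 205 and 2758. Both lost bins, chr8:126430001-126435000 and chr8:130670001-130675000, held peaks in all 3 ecSE6 lists further down, so they mark changes of rank around the limit of 100 and not the absence of a peak. For comparison, 15 bins were shared by the 100 best peaks of all 5 lists, 12 of them on chromosome 8. They include chr8:126595001-126605000 in LOC105375751, ranked 1, 2 and 2 in ecSE6 and 1 and 2 in the vector, and chr8:130825001-130835000 in ADCY8, an adenylyl cyclase gene, ranked 4, 5 and 5 and 3 and 3.

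The same 100 best peaks were tested against the 10 libraries of vector, ecSE1, ecSE2 and ecSE7 with Fisher's exact test. Of 110 bins that could be tested (a peak in 3 or more libraries and none in 3 or more), 0 (0%) passed an adjusted p of 0.05. Unadjusted, 3 bins had an exact p = 0.00350, the smallest that 3 against 10 allow, and an adjusted p of 0.128; 8 bins with that p would have been needed to pass. These were the 2 bins of the RNU6-869P site and the PVT1 bin, present in 3 of 3 ecSE6 lists and 0 of 10 others. The lower of the RNU6-869P bins rests on 3 bases of overlap in 2 of the ecSE6 libraries. In the PVT1 bin, chr8:127795001-127800000, peaks of any rank covered 2443, 2018 and 1808 bases in ecSE6 and 76.6 ± 125 bases (SD, n = 10) in the others. Among the 300 best, 0 of 343 bins (0%) passed, and a 4th bin was present in the 3 ecSE6 lists alone, chr8:127800001-127805000 in PVT1. With the 3 combination libraries counted beside ecSE6, which assumes that the combination holds ecSE6, 2 of 138 bins (1.45%) of the 100 best passed, each at an adjusted p of 0.00862 (Fisher's exact test, 6 against 10). They were the PVT1 bin and chr8:126505001-126510000 of the RNU6-869P site. Tests were chosen with earlier results of these data known, and the labels do not say that the combination holds ecSE6. These adjusted p-values are therefore no independent support for the 2 sites.

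In lists of equal length the share of peaks on chromosome 8 as a whole was 6.23% ± 0.164 (SD, n = 3) in ecSE6 and 6.21% ± 0.0412 (SD, n = 2) in the vector, a difference of 0.0227 percentage points (two-sided exact permutation test, p = 1.00), and of 0.122 points without both libraries that lack the chromosome 15 peak. At -log10 q of at least 5 it was 0.409 points (two-sided exact permutation test, p = 0.4). The share within 2 Mb of the lower end of MYC was higher in each ecSE6 library than in each vector library. There, ecSE6 replicates had 48, 58 and 46 of 10288 peaks, and vector replicates 31 and 38, or 0.492% ± 0.0625 (SD, n = 3) against 0.335% ± 0.0481 (SD, n = 2). The difference of 0.157 points had p = 0.2, the smallest possible in the two-sided exact permutation test. Against all 10 other libraries, at 0.322% ± 0.0376 (SD, n = 10), the difference was 0.171 points with 3 of 3 ecSE6 libraries above all 10. The two-sided exact permutation p was 0.00699, again the smallest possible, and 0.0559 after adjustment over 8 tests, which is not past 0.05. The window holds both sites described above, and the tests were chosen with earlier results of these data known. The p-values for the window are therefore no independent support for a gain there. Without both libraries that lack the chromosome 15 peak, the window difference was 0.136 points against the vector and 0.181 points against the other libraries (two-sided exact permutation test, p = 0.0364 for the latter). Ranked by fold, the difference against the 10 was 0.0577 points (p = 0.133, exact permutation test).

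Window counts in ecSE6 stayed higher, by a narrow margin, without the 2 sites. With their peaks left out, ecSE6 replicates still had 41, 47 and 38 window peaks, the vector 31 and 37, and the 10 other libraries 27 to 37 (difference of 9.70 peaks, two-sided exact permutation test, p = 0.00699, an alternative chosen after seeing the data). The lowest ecSE6 library was 1 peak above the highest of the 10. The 3 combination libraries, which are not among the 10, were at a similar level to ecSE6. They had 49, 45 and 47 window peaks, and 41, 38 and 40 with those of both sites left out. Of 8 tiles of 0.5 Mb, the one from 127735434 to 128235433, which runs from MYC through PVT1, had 3, 5 and 3 such peaks in ecSE6, 0 and 1 in the vector and 0 to 2 in the 10. In each of the other 7 tiles the ecSE6 counts overlapped those of the 10 libraries. The tile from 127735434 to 128235433 also holds the PVT1 start. Without the peaks of both sites, 1 gained bin remained in the window. Whether the remaining peaks of that tile belong to the flank of the PVT1 start was not tested.

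**Figure D3:**
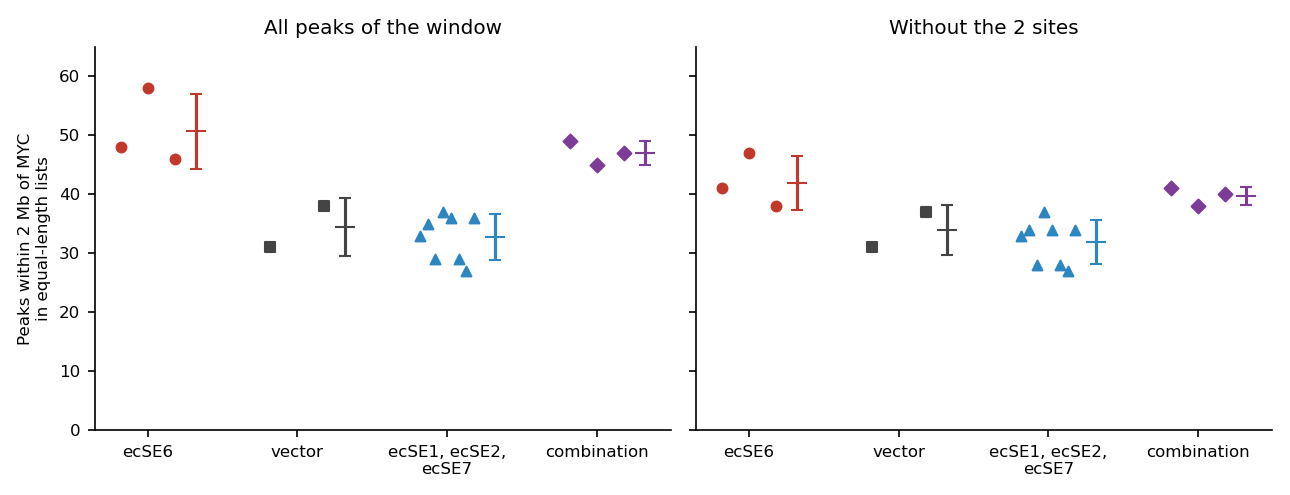
Number of peaks within 2 Mb of MYC among the 10288 best peaks of each PC3 DM library, with all peaks (left) and without those of the PVT1 start and the RNU6-869P site (right). Points are libraries, and bars show the mean ± SD of each group; the 3 ecSE6 libraries have 46 to 58 peaks and the 2 vector libraries 31 and 38, and without both sites 38 to 47 against 31 and 37.

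Genes of the 8q24 neighbourhood were read from a list of 33, of which 31 were in the gene table. In lists of equal length 13 of them, with 2 kb on each side, held a peak in any of the 5 libraries, 2 were gained and 0 were lost. Of all genes with a peak, 1.01% were gained and 1.88% lost. The gained genes were PVT1 and MIR1204, which lies within it. Peaks of the deposited lists covered 7104, 5914 and 4172 bases of PVT1 in ecSE6 and 327 and 1055 in the vector, so that no library of the 2 groups overlapped. MYC itself, the transcription factor gene, had weak peaks over 351 bases in ecSE6 replicate 1 and 309 in replicate 3, and 0 bases in ecSE6 replicate 2 and in both vector libraries. Of those 2 peaks only that of replicate 3 was within the 10288 best. CASC11, a noncoding RNA gene next to MYC, had 232 bases in vector replicate 2; the peak that ecSE6 replicate 1 had in MYC also lies in the 2 kb beside CASC11, and the gene had no other peak in the 5 libraries. At ASAP1, which encodes a GTPase-activating protein, the order was opposite to that at PVT1 and the groups did not overlap, with 499, 0 and 185 bases in ecSE6 and 716 and 723 in the vector. The groups overlapped at CASC21 (603, 1183 and 1509 bases against 1356 and 521), CASC8 (603, 1048 and 1366 against 1385 and 357) and CCDC26 (2252 ± 963 against 2248 ± 31.1 bases, SD, n = 3 and 2). They also overlapped at ADCY8, with 5119 ± 882 against 4784 ± 529 bases (SD, n = 3 and 2). TRIB1, LRATD2, SQLE and POU5F1B had no peak in any of the 5 libraries.

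Over the genome, gained bins were fewer than lost ones by presence of any peak, and more numerous where an overlap of at least 500 bp was asked, with 36 gained and 11 lost. A gain requires a peak in 3 lists and a loss in only 2, so that the call itself favours losses. In lists of equal length 38662 bins of 5 kb were occupied, of which 198 (0.512%) were gained, 343 (0.887%) lost and 641 shared by all 5 libraries. On chromosome 8, 18 of 2177 occupied bins (0.827%) were gained and 20 (0.919%) lost. Within 2 Mb of MYC, 6 of 117 occupied bins (5.13%) were gained and 0 lost. These include the lower bin of the RNU6-869P site, with 375, 3 and 3 bases under ecSE6 peaks. Chromosome 19 had the highest share of gained bins, 18 of 1175 (1.53%), with 9 (0.766%) lost. In the lists as deposited 303 of 120509 bins (0.251%) were gained and 2032 (1.69%) lost, and 5 and 2 of these lay in the MYC window. These counts move with each library, since fewer libraries are then required to share a bin: 634, 611 and 815 bins were gained without ecSE6 replicate 1, 2 or 3 and 705 without vector replicate 1. Lost bins numbered 7472 without vector replicate 1 and 5791 without vector replicate 2. Without both libraries that lack the chromosome 15 peak, 1330 bins were gained and 7992 lost. In the window 14 bins were gained without ecSE6 replicate 3, and 0 with lists ranked by fold.

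Gained stretches, which join adjacent gained bins, were ranked by the median over the 3 ecSE6 libraries of the best peak in each. The 4 stretches in the MYC window had median ranks of 3 (the PVT1 start), 15 (the RNU6-869P site), 227 (the peak on the MYC side) and 5899 (chr8:127850001-127855000 in PVT1). Of all 194 stretches, 2 had a peak among the 100 best of every ecSE6 list, the PVT1 start and the RNU6-869P site. The RNU6-869P stretch is the single bin chr8:126500001-126505000, with 375, 3 and 3 bases under ecSE6 peaks. It counts as gained through a 3 base overlap in 2 of the 3 libraries. The bin with the summit was not gained, since vector replicate 2 had a peak there at rank 10151. The best of the 190 stretches outside the window, chr14:34420001-34425000, had a median rank of 451, and over those 190 the median of this rank was 3724, better than the last of the 4 in the window. The difference in rank between the window and elsewhere was not tested. Both vector lists as deposited had a peak in that chromosome 14 stretch too. Among 341 lost stretches the best median rank was 517, and none had a peak among the 100 best of both vector lists. Of the gained bins outside the window, libraries of ecSE1, ecSE2 and ecSE7 had a peak in 28.6% on average, against 8.33% of those within it.

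**Figure D4:**
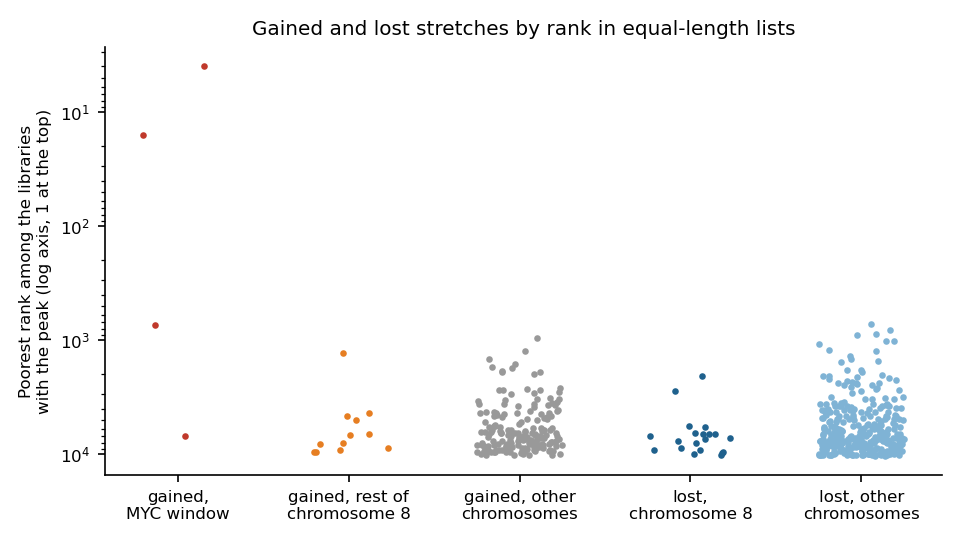
Poorest rank, on a log axis with rank 1 at the top, among the libraries that share each of 194 gained and 341 lost stretches of 5 kb bins in lists of equal length, with each point a stretch. The poorest rank is the lowest of 3 ecSE6 ranks for gained and of 2 vector ranks for lost stretches. The 2 points above rank 100, both gained, are the PVT1 start and the RNU6-869P site. The latter is a bin with 375, 3 and 3 bases under ecSE6 peaks.

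On chromosome 8 outside the window, a bin in FER1L6 (chr8:123960001-123965000), a gene of the ferlin family, had peaks over 1394, 613 and 453 bases in the ecSE6 libraries at ranks 1110, 1303 and 211. None of the 10 vector, ecSE1, ecSE2 and ecSE7 libraries had a peak there at any rank, and 2 of 3 combination libraries did. A bin in TSNARE1 (chr8:142370001-142375000), a gene with a t-SNARE domain, likewise had 395, 553 and 306 bases in ecSE6 and none in the 10, at ranks 4237, 5533 and 6703. The remaining 10 gained stretches of chromosome 8 outside the window each had a peak in 1 to 5 of the 8 other single perturbation libraries.

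Of 4962 protein-coding genes with a peak in any of the 5 libraries, 57 (1.15%) were gained and 104 (2.10%) lost, and with an overlap of at least 500 bp 23 and 6. Without vector replicate 1 these were 226 and 749, and without vector replicate 2, 129 and 452. Without ecSE6 replicate 1, 2 or 3, 161, 137 and 132 genes were gained, and 157 were lost without ecSE6 replicate 1. Without both libraries that lack the chromosome 15 peak, 384 were gained and 899 lost. The gained genes that the fewest other libraries shared included CYP19A1, the aromatase gene, with 656, 520 and 424 bases in ecSE6 and 0 in both vector libraries, at ranks 9537, 3504 and 3597. ZNF808, a KRAB zinc finger gene, had 670, 294 and 211 bases against 0 and 0. ZNF347, another of that family, had 757, 249 and 185 against 0 and 0. For SLC12A8, a solute carrier gene, and PTGIS, the prostacyclin synthase gene, the vector had peaks below the limit of equal length: SLC12A8 had 0 and 746 bases there and PTGIS 696 and 207. SYTL3, IFT22 and OR1L4 likewise had a vector peak in 1 list as deposited.

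Lost genes were led by LAMA2, which encodes a laminin chain, and PPARGC1A, a coactivator of mitochondrial genes. LAMA2 had 333 and 1301 bases under vector peaks and 0, 1159 and 1432 in ecSE6 as deposited, so the groups overlapped and only the ranks placed it among the lost. PPARGC1A had 758 and 2151 bases against 344, 250 and 594, without overlap. CRIM1, which encodes a membrane protein that binds BMPs, had the best ranks of the 12 lost genes examined, 907 and 128, with 943 and 457 bases against 0, 0 and 607. At least 1 ecSE6 list as deposited held a peak in each of the 12 lost genes examined (the others were TSHR, ATP8B4, SHC4, DIAPH2, ZNF599, KIAA1217, FNDC3A, ADCY2 and C10orf90).

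Gene groups were set beside all protein-coding genes with a peak, of which 1.15% were gained and 2.10% lost. Of 193 zinc finger genes on chromosome 19 with a peak, 4 were gained (2.07%; ZNF878, ZNF808, ZNF347 and ZNF813) and 2 lost (1.04%; ZNF599 and ZNF112). Of 37 clustered protocadherin genes, which encode neuronal adhesion proteins, 7 were gained (18.9%) and 0 lost, but these PCDHG genes overlap one another and share the same peaks. The peaks behind them in the lists of equal length ranked 7887 in ecSE6 replicate 1, 6865 in replicate 2 and 2782 and 6698 in replicate 3, at different positions, and both vector lists as deposited had peaks in the same cluster. Of 60 olfactory receptor genes with a peak 1 was gained, OR1L4, and 0 lost. None was gained or lost among 10 genes of the H3K9 methylation machinery with a peak, 3 of prostate identity, 3 mesenchymal or epithelial genes and 1 housekeeping gene. These groups are too small to show a difference from the shares of all genes. Of 160 promoters with a peak, 0 (0%) were gained and 0 lost, where a promoter runs from 250 bases before to 50 bases after a start in the RefSeq table. That table did not cover PVT1.

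The combination libraries had peaks at both sites, over less length in each library than in any ecSE6 library. At the PVT1 start their peaks covered 2208 ± 489 bases (SD, n = 3), and the main peak ranked 5, 11 and 10 with 554, 430 and 375 summit fragments, which overlap the 534 to 1099 of ecSE6. The fold of 6.17 in combination replicate 1 was above those of all 3 ecSE6 libraries. At the RNU6-869P site they covered 1259 ± 198 bases (SD, n = 3) at ranks 54, 29 and 46. The ecSE1, ecSE2 and ecSE7 libraries had 147 ± 176 and 250 ± 226 bases at the 2 sites (SD, n = 8). Counted against the same 2 vector libraries in lists of equal length, the MYC window held 5 gained bins for the combination, 1 for ecSE7 and 0 each for ecSE1 and ecSE2, beside 6 for ecSE6. Over the genome 0.347% of occupied bins were gained for the combination, 1.18% for ecSE7, 0.116% for ecSE1 and 0.206% for ecSE2. These comparisons share the vector libraries and rest on groups of 2 or 3, and the differences between them were not tested.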

How the data were processed

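CUT&Tag peak lists of 16 PC3 DM libraries, on hg38, were used, 1 list per library. The tools named in the submitters' processing notes are MACS2 2.2.7.1, Bowtie2 2.3.5, bedtools, SAMtools and Trim Galore 0.6.6, without their roles. Whether a control library was used was not stated in those notes. The deposited display score was not used. The deposited fold is the authors' ratio of summit to local background, and the deposited -log10 p and -log10 q belong to each peak. They rank peaks within a list. Folds at the PVT1 start are given side by side for several libraries, and are not a measure of enrichment between lists. Peaks on Y and unplaced sequences were left out. Summit fragments and local background were recovered from the fold and p-value (tolerance of 0.0005 in -log10 p, in 1500 peaks sampled per library). The lowest background was 0.164 to 0.405 fragments. Read depth is unknown.

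Lists were ranked by -log10 q, then fold, and cut to 10288 peaks. Bins of 5 kb and genes with 2 kb on each side (RefSeq, GRCh38.p14, without strand or exons) were called gained or lost by presence. Exact permutation tests and Fisher's exact test, tested on simulated data, used a Benjamini-Hochberg threshold of 0.05. Named genes were members of the 8q24 list and up to 12 gained and 12 lost genes that the fewest of 8 other libraries matched, then by median rank. Members, gene lists and tests were chosen with earlier results of these data known. Alternatives were lists as deposited, -log10 q of at least 5, ranking by fold, bins of 10 kb, an overlap of 500 bp, a window of 1 Mb, genes without flanks, 300 or 1000 best peaks, each library left out, and replicate number as a block. Computations ran in Python 3.11.15 with scipy 1.17.1, pandas 2.3.3, numpy 2.4.6 and matplotlib 3.10.9.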

Additional observations from a re-analysis of the deposited data

Results flagged for a closer look

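The combination libraries, left out of the comparison of ecSE6 with the vector, had peaks at both sites where ecSE6 differed, above the level in the vector. At the PVT1 start the mean length under peaks in the 3 combination libraries was 2208 bases, and both vector libraries had 0. At the RNU6-869P site the mean was 1259 bases, and the vector libraries had 0 and 187. The labels do not say whether the combination includes ecSE6.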

How the results depend on the processing

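Tests are read here at an unadjusted p of 0.05. Over the alternatives, 161 of 214 values kept their direction and side of the threshold or, for counts, stayed within 1.5 times and, for covered lengths, within 1 SD. In the permutation tests against the vector no p could pass the threshold, so only a change of direction could count there. The same holds where 1 library was left in a group and no test was made. The difference in the chromosome 8 share changed sign: against the vector it was 0.229 points with lists as deposited, 0.409 at -log10 q of at least 5, -0.0518 points without the peaks of both sites and -0.0680 to 0.0923 with 1 library left out, and against the 10 libraries 0.123, 0.241, -0.0384 and -0.0573 to 0.103. Ranked by fold, the differences against the 10 libraries were 0.0577 points for the MYC window (p = 0.133, exact permutation test) and 61.9 bases for the PVT1 body (p = 0.776, exact permutation test), 0 bins were gained in the window, and 0 bins were in every ecSE6 list alone among the best peaks. The fold divides by a local background that was 148 to 384 fragments at the PVT1 summit. With 1 library left out the window difference against the 10 was 0.135 to 0.193 points and the PVT1 body difference 652 to 1312 bases. With lists as deposited, 303 bins were gained and 2032 lost, and 191 genes lost. At -log10 q of at least 5, 743 bins were lost and 36 genes gained. An overlap of 500 bp left 36 gained and 11 lost bins, 3 gained in the window, and 23 gained and 6 lost genes. With 1 library left out, gained bins ranged from 290 to 815, lost bins from 416 to 7472, gained bins in the window from 7 to 14, gained genes from 129 to 226, lost genes from 145 to 749, and bins in the ecSE6 lists alone among the best peaks from 3 to 5. Counting the combination with ecSE6, which assumes that it holds ecSE6, called 2 bins.

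Chosen after seeing the data, leaving out the peaks of both sites left 1 gained bin in the window and 0 bins in the ecSE6 lists alone. Leaving out ecSE6 replicate 1 and vector replicate 1 together gave 1330 gained and 7992 lost bins, 10 gained in the window, 384 gained and 899 lost genes, 5 bins in the ecSE6 lists alone, and a PVT1 body difference of 633 bases (p = 0.145, exact permutation test). Same-numbered ecSE6 and vector libraries correlated at 0.50 and -0.06 in their deviations from the group means. With 2 vector libraries these deviations are mirror images, so they cannot show whether replicate numbers pair the libraries. ecSE6 replicate 1 and vector replicate 1 had 19.1% of bins in common, the highest share of any pair in the 2 groups. The share was 17.3% for ecSE6 replicates 1 and 2, and 9.99% for ecSE6 replicate 2 and vector replicate 2. With the replicate number as a block the chromosome 8 difference against the vector was -0.0680 points, the window difference against the 10 libraries was 0.177 points (exact permutation test, p = 0.0133), the PVT1 body difference 844 bases (exact permutation test, p = 0.0400), and 0 bins were called. The block changed no other call.

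Lists held 10288 to 102286 peaks and read depth is unknown, so absence of a peak is absence from that list. With 3 libraries against 2 the two-sided exact permutation test cannot go below 0.2, and Fisher's exact test cannot go below 0.1.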

Other observations

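A bin on chromosome 8 beyond the MYC window, chr8:133725001-133730000, set ecSE6 apart in the other direction. Among the 1000 best peaks it was present in 0 of 3 ecSE6 lists and in 10 of 10 vector, ecSE1, ecSE2 and ecSE7 lists (Fisher's exact test, p = 0.00350, adjusted p = 0.783). Of 1119 bins tested there, 0 (0%) passed an adjusted p of 0.05. All 3 ecSE6 lists had a peak there further down, at ranks 2912, 1013 and 1894 with 89, 108 and 73 summit fragments. The vector peaks ranked 78 and 477 with 144 and 69 fragments, so the fragment counts of the 2 groups overlapped. The 3 ecSE1 libraries had their 2nd best peak in this bin, with 646, 1474 and 1063 fragments, and so did the 3 combination libraries. Covered lengths were 718 ± 96.9 bases in ecSE6 (SD, n = 3) and 1022 ± 520 bases in the 10 (SD, n = 10).

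The ends of peaks recurred between ecSE6 libraries at the PVT1 start. Peaks in replicates 2 and 3 began at the same base, 127797270 and 127798326, and summits lay at 127798498, 127798499 and 127798499 in replicates 1, 2 and 3. This was not limited to ecSE6: combination replicates 2 and 3 had summits at 127798498 and 127798499, and combination replicate 1 at 127798380.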
